A study of Mus musculus with 60 samples.

Results

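The 45 genes described here were listed as peroxisomal, although the Abcd4 protein is known from the lysosome. Their messenger RNA was measured in the kidneys of 60 male mice. They were chosen by name, as genes of peroxisome assembly, division, membrane transport and metabolism, with earlier results of these data known. They were matched by symbol to Ensembl gene rows. All 45 were among the 15546 genes retained for testing out of 55335 listed, a gene being retained where some sample reached 1 CPM, the unit of gene counts scaled to the library total. The study compared control mice with cKOt mice, in which the clock gene Bmal1 was deleted in renal tubular cells, to ask which kidney functions depend on the tubular clock. The cKOt mice carried Bmal1 lox/lox with the Pax8-rtTA and LC-1 Cre transgenes, so that doxycycline switched on Cre where the Pax8 promoter is active, along the tubule. The control mice were their Bmal1 lox/lox littermates. Both genotypes were C57BL/6J, received doxycycline (2 mg/ml, with 20 mg/ml sucrose) in drinking water for 2 weeks from 8 weeks of age, and were sampled 4 weeks after the end of that treatment. They were kept in 12 h of light and 12 h of darkness and killed at Zeitgeber time (ZT, hours after lights on) 0, 4, 8, 12, 16 or 20, with 5 mice per genotype and time point.

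Peroxisomes are organelles bounded by a single membrane that break down fatty acids the mitochondria cannot start on, such as very-long-chain, branched-chain and dicarboxylic acids, and that carry out the first steps of ether lipid synthesis. Their oxidases pass electrons straight to oxygen and make hydrogen peroxide, which catalase removes in the same compartment. Peroxins, the products of the Pex genes, insert membrane proteins and import finished enzymes from the cytosol. In the kidney, peroxisomes are most abundant in the proximal tubule. BMAL1 pairs with CLOCK and binds E-boxes in DNA, and the nuclear receptor PPARα, which binds DR1 elements, is a known activator of many peroxisomal genes.

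Promoter windows of RefSeq (GRCm38.p6, 250 bases before to 50 bases from the transcription start on) were matched by symbol for 36 of the 45 genes, giving 44 windows. Shown first are the windows of the gene with the most negative difference between genotypes, Acaa1b, of its paralog Acaa1a and of the gene with the most positive difference, Hacl1. Capitals mark the 50 bases from the start on.
Acaa1b, chr9:119157044-119157343, minus strand: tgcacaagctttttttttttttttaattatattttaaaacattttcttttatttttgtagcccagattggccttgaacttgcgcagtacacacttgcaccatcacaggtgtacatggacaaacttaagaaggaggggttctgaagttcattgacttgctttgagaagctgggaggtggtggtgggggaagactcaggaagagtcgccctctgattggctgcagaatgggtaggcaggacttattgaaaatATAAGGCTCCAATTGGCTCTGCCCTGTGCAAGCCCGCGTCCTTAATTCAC
Acaa1a, chr9:119341044-119341343, plus strand: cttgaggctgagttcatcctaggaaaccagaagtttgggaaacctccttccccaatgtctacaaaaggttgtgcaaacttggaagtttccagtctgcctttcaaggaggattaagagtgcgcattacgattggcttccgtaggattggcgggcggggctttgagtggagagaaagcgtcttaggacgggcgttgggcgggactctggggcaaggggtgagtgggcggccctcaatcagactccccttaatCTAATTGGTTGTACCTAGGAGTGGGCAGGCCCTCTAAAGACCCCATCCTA
Hacl1, chr14:31640916-31641215, minus strand: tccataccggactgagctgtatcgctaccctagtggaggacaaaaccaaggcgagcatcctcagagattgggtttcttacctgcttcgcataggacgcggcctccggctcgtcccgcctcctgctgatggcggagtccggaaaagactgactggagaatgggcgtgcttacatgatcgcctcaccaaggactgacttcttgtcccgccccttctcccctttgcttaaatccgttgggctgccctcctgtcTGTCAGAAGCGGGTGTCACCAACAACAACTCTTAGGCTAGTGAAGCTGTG
In a global alignment the windows of Acaa1a and Acaa1b shared 146 identical bases of 300, and the longest run found in both was 8 bases. The E-box CACGTG, which reads the same on both strands, was found in 3 of the 44 windows (6.82%), those of Dao, Gnpat and Ddo, against 7.15% of all 32851 windows. The bases around each are shown with the E-box in capitals.
Dao, chr5:114004701-114004750, plus strand, 85 bases before the start: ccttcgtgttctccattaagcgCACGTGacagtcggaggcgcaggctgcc
Gnpat, chr8:124862787-124862836, plus strand, 224 bases before the start: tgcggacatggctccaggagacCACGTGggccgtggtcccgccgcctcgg
Ddo, chr10:40629862-40629911, plus strand, 127 bases before the start: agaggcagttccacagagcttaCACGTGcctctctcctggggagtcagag
The DR1 element, the ROR element and the D-box TTANGTAA, each searched on both strands, were in none of the 44 windows, against 0.381%, 0.219% and 2.32% of all windows. No window held more than 1 of the 4 motifs, and a match describes letters in a window, not binding.

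The labels name the tissue renal tubule, whereas the study's methods describe RNA from half-kidneys. Markers of each tubule segment, of podocytes and of endothelium were all measured, the podocyte markers summing to 252 to 369 CPM and the endothelial markers to 356 to 438 CPM in control mice. In such bulk samples, fewer cells of a type and less RNA per cell cannot be told apart. The libraries held 17791420 to 20906706 counts on genes (median 18545208.5), and of 120 pairs of replicates none was identical. The authors kept 5 of 6 mice per group after looking at RNA quality and clustering, and 1 of the cKOt ZT16 mice kept here is marked for removal in the study's sample list. Arntl, the gene of BMAL1, averaged from 2.73 ± 0.825 CPM at ZT8 to 48.4 ± 10.2 CPM at ZT0 in control mice and from 17.4 ± 2.01 CPM at ZT12 to 24.4 ± 1.57 CPM at ZT0 in cKOt mice (SD, n = 5 each); the counts cover the whole gene, and the floxed exon was not counted apart.

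Over the 6 time points, 30 of the 45 genes were lower in cKOt mice, 6 were higher and 9 were not called (edgeR quasi-likelihood test on counts, Benjamini-Hochberg adjusted p below 0.05 over all retained genes). Of all retained genes, 23.2% were called lower and 26.8% higher. The median log2 fold change (cKOt minus control) was -0.12 over the 45 genes and 0.012 over all retained genes. With an added fold of 1.2, 14 genes were lower and 1 was higher, against 8.16% and 7.9% of all retained genes. At each of the 6 time points the median of the 45 genes was below 0, from -0.084 at ZT0 to -0.19 at ZT16, while that of all retained genes lay between 0.0028 and 0.017.

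Of the 11 peroxins of protein import and membrane assembly, 3 were lower, 1 was higher and 7 were not called, near the 23.2% of all retained genes called lower, and 1 was lower without the RUVs factors that stand for unwanted variation in the model. Of the 34 other genes 27 were lower, 5 were higher and 2 were not called, and the difference between roles was not tested. The counts by role that follow stand beside 23.2% lower and 26.8% higher among all retained genes. The summed level of the 45 genes was 14018 ± 682 CPM in control mice (range 12231 to 15476) and 11662 ± 505 CPM in cKOt mice (range 10772 to 12748; SD, n = 30 each). The ranges of these sums overlapped between the genotypes. In the same unit, the mean sum over all retained genes was also lower in cKOt mice, 970903 CPM against 1030510 CPM in control mice.

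The number of genes whose 5 control and 5 cKOt mice were fully apart was counted at each hour. At ZT0, 11 of the 45 had all cKOt mice below and 1 all above, against 7.3% of all retained genes apart in either direction. At ZT4 it was 11 below and 0 above (11.1% of all), at ZT8 10 and 1 (9.49%) and at ZT12 10 and 2 (9.73%). At ZT16 it was 16 below and 1 above (9.04%), and at ZT20 16 below and 0 above (6.86%). For 20 of the 45 genes the groups overlapped at every time point, a count that was not made for all retained genes.

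**Figure D1:**
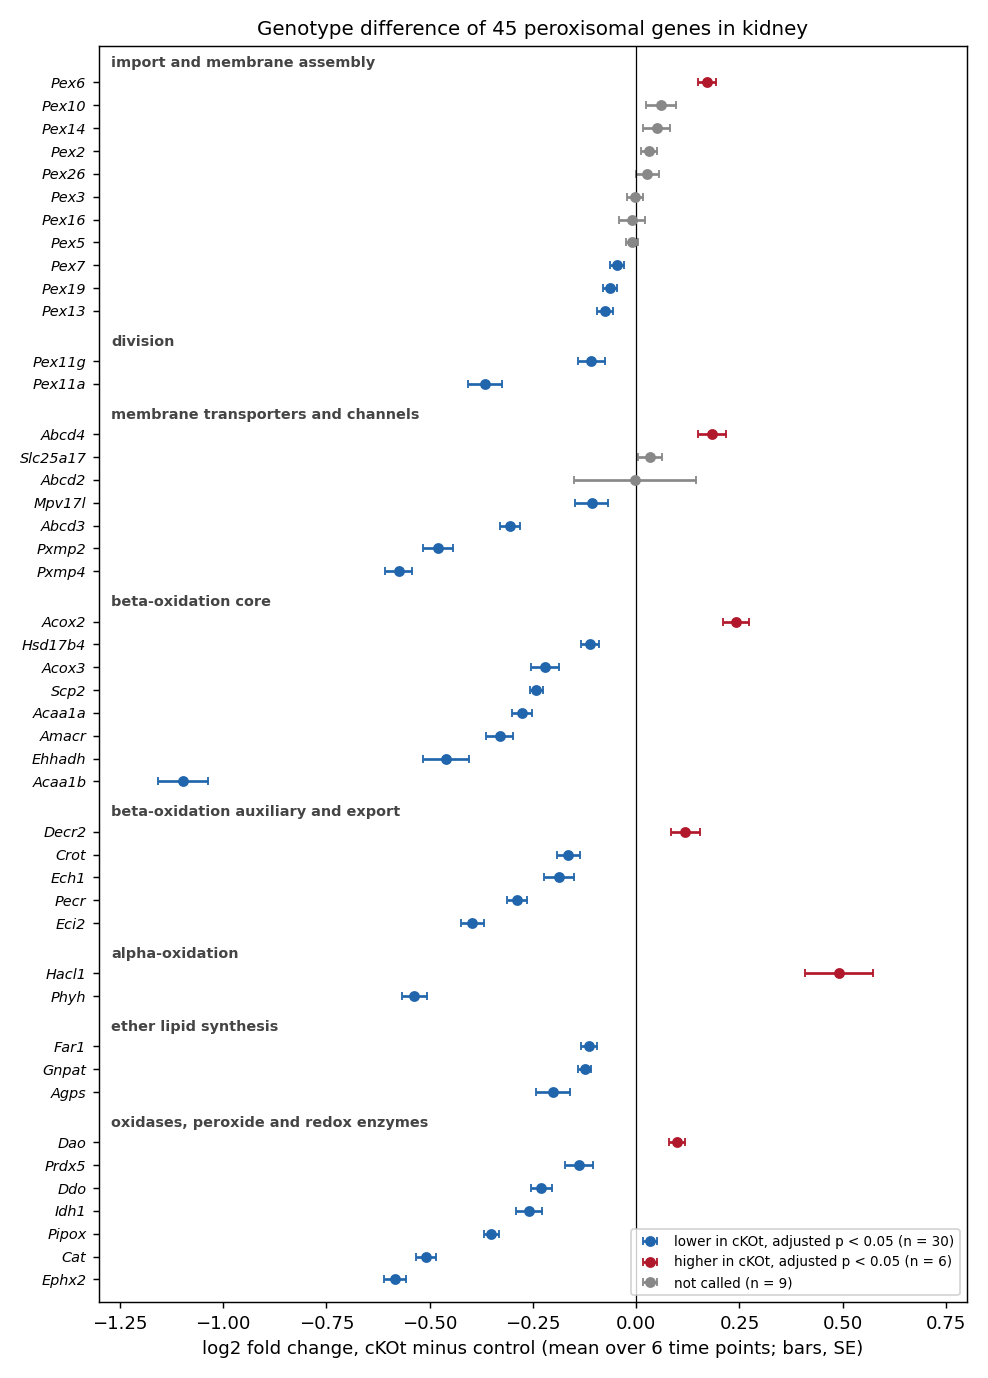
Log2 fold change of each of the 45 genes (horizontal axis, cKOt minus control, mean over 6 time points of 5 mice per genotype), with bars for the SE, grouped by role. Blue points (30) were called lower and red points (6) higher by edgeR; the 7 grey points among the peroxins at the top lie between -0.011 and 0.061, and Acaa1b stands farthest to the left at -1.10.

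Among the peroxins, the differences were small in both directions. Pex7, the import receptor for proteins with the second type of targeting signal, fell by 0.046 ± 0.017 on the log2 scale, Pex13, part of the docking complex, fell by 0.075 ± 0.019, and Pex19, the chaperone of newly made membrane proteins, fell by 0.064 ± 0.017 (SE). Pex5, the main import receptor, differed by -0.011 ± 0.015, Pex14, its docking partner, by 0.050 ± 0.033, and the membrane assembly factors Pex3 and Pex16 by -0.0036 ± 0.019 and -0.0099 ± 0.032, none of them called. The ubiquitin ligase subunits Pex2 and Pex10 (0.031 ± 0.019 and 0.061 ± 0.036) and Pex26, the membrane anchor of the export motor (0.027 ± 0.028), were also not called.

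Pex6, an ATPase of the motor that pulls the import receptor back out of the membrane, was the single peroxin called higher. Its level ran from 22.4 through a median of 33.8 to 58.1 CPM over the 30 control mice and from 18.1 through 39.3 to 58.8 CPM over the 30 cKOt mice. At ZT0, where the difference was widest, control mice held 40.2, 29.3, 31.9, 33.1 and 34.0 CPM and cKOt mice 44.6, 43.0, 36.4, 48.5 and 37.1 CPM. The cKOt mice lay higher as a group, but the lowest of them fell inside the control range. The log2 fold change was 0.17 ± 0.021 (edgeR adjusted p = 8.72e-10), and without the RUVs factors in the model the edgeR adjusted p was 0.11 (4.34e-12 to 0.136 over 16 alternatives). Pex7 and Pex13 also lost their calls without the RUVs factors (edgeR adjusted p = 0.423 and 0.198) and with library batch in their place (0.607 and 0.208), Pex7 also without the first, the second or the fifth replicates (0.0637, 0.0700 and 0.0818) and Pex13 without the fourth (0.0521).

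Both division factors fell. Pex11a, which elongates the membrane before fission and is inducible by fatty acids, had a log2 fold change of -0.37 ± 0.041 (edgeR adjusted p = 4.02e-11), and Pex11g one of -0.11 ± 0.033 (edgeR adjusted p = 0.00512). At ZT20 Pex11a held 89.8, 95.1, 95.7, 90.3 and 84.7 CPM in control mice and 68.9, 55.4, 54.3, 51.4 and 52.7 CPM in cKOt mice. The groups did not overlap at that time point, nor at 2 of the other 5, and the difference varied with time as described further on.

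Against 23.2% lower and 26.8% higher among all retained genes, 4 of the 7 membrane transporters and channels were lower, 1 was higher and 2 were not called. Pxmp4, a small peroxisomal membrane protein, showed the lowest fold change among them. Over 30 mice each, it ran from 96.7 through 118 to 140.3 CPM in control and from 59.3 through 79.2 to 123 CPM in cKOt mice. At ZT20 the control mice held 122, 115, 137, 132 and 119 CPM and the cKOt mice 87.5, 66.7, 64.8, 66.0 and 59.3 CPM. The genotypes did not overlap at 5 of 6 time points, ZT12 being the exception, where 1 cKOt mouse held 123 CPM. The log2 fold change was -0.57 ± 0.032 (edgeR adjusted p = 5.6e-22).

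Abcd3, the half-transporter that carries branched-chain and dicarboxylic acyl-CoA into the organelle, ran from 523 through 642 to 802 CPM in control mice and from 435 through 509 to 724 CPM in cKOt mice. At ZT20 its 5 control mice held 802, 729, 674, 671 and 686 CPM and its 5 cKOt mice 489.8, 482, 555, 465 and 444 CPM. Every control mouse was above every cKOt mouse there, and over the day Abcd3 was lower in cKOt by a log2 fold change of -0.31 ± 0.025 (edgeR adjusted p = 8.24e-16). Pxmp2, a pore protein of the peroxisomal membrane, fell by 0.48 ± 0.036 and Mpv17l, a protein of the same family, fell by 0.11 ± 0.040 on the log2 scale, a call that was lost without the RUVs factors (edgeR adjusted p = 0.109), with library batch in their place (0.231) and without the fifth replicates (0.105; 0.00859 to 0.231 over the alternatives).

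Abcd4 belongs to the same transporter family by sequence, but its protein is known from the lysosome, where it serves vitamin B12 export. It ran from 26.0 through 37.7 to 53.2 CPM in control mice and from 29.8 through 42.7 to 57.2 CPM in cKOt mice. At ZT0 control mice held 32.6, 26.3, 32.9, 30.8 and 33.4 CPM and cKOt mice 39.1, 41.0, 36.6, 42.7 and 40.8 CPM. The groups were apart at ZT0 and at 1 other time point, and the log2 fold change over the day was 0.18 ± 0.033 (edgeR adjusted p = 5.05e-06). Slc25a17, a carrier for coenzyme A and other cofactors, differed by 0.034 ± 0.029, and Abcd2, a very-long-chain acyl-CoA transporter near the detection limit at 0.569 ± 0.276 CPM in control mice (SD, n = 30), by -0.0031 ± 0.15; neither was called.

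Of the 8 genes of the beta-oxidation core, 7 fell and 1, Acox2, rose, with a median log2 fold change of -0.26. The shares of all retained genes called lower and higher were 23.2% and 26.8%. Acaa1b, a thiolase that carries out the last cleavage of the cycle, showed the most negative difference of the 45 genes. It ran from 100.5 through 163 to 249 CPM in control mice and from 40.6 through 74.9 to 137 CPM in cKOt mice. At ZT20 control mice held 100.5, 144, 156, 214 and 136 CPM and cKOt mice 92.7, 54.8, 49.9, 52.1 and 66.4 CPM. All cKOt mice were below all control mice at ZT20 and at 4 of the other time points, and the log2 fold change was -1.10 ± 0.061 (edgeR adjusted p = 2.94e-22).

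Acaa1a, the paralog of Acaa1b with the same reaction, ran from 55.1 through 82.8 to 119 CPM in control mice and from 48.7 through 69.0 to 86.0 CPM in cKOt mice. At ZT12, its widest time point, control mice held 106, 80.3, 90.8, 71.0 and 81.4 CPM and cKOt mice 48.7, 62.2, 67.9, 76.3 and 50.4 CPM. The highest cKOt mouse exceeded the lowest control mouse, and the log2 fold change over the day was -0.28 ± 0.023 (edgeR adjusted p = 4.16e-15). Of 1613 stretches of 150 bases, the read length, in the longest Acaa1a transcript, 205 (12.7%) were identical in an Acaa1b transcript, so reads from them could not be assigned to either gene and both levels are uncertain to that extent. Exons of 16 of the 45 genes, among them Acaa1a (with Myd88), Acaa1b (with Dlec1) and Prdx5 (with Trmt112), also overlap a gene on the opposite strand.

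The other 5 members of the core that fell were Ehhadh, the bifunctional enzyme of the classical inducible pathway (-0.46 ± 0.055 on the log2 scale), Amacr, the racemase for branched-chain and bile acid intermediates (-0.33 ± 0.033), Scp2, the thiolase and sterol carrier (-0.24 ± 0.016), Acox3, an oxidase of branched-chain acyl-CoA (-0.22 ± 0.034), and Hsd17b4, the second bifunctional enzyme (-0.11 ± 0.022). Ehhadh differed by -0.68 at ZT0 and by -0.0037 at ZT12, where 1 cKOt mouse held 1775 CPM and the other 4 held 808 to 943 CPM; without that mouse, left out after the data were seen, the ZT12 difference was -0.28. Acox2, the oxidase of bile acid intermediates, ran from 110.0 through 140.5 to 169.6 CPM in control mice and from 137 through 165 to 185 CPM in cKOt mice. At ZT12 control mice held 110.0, 129, 110.1, 120.0 and 125 CPM and cKOt mice 153, 156, 168, 174 and 171 CPM. The groups were fully apart at ZT12 alone, and the log2 fold change over the day was 0.24 ± 0.031 (edgeR adjusted p = 3.78e-09).

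Among the 5 auxiliary and export enzymes, 4 fell: Eci2, an isomerase that moves double bonds (-0.40 ± 0.029), Pecr, the trans-2-enoyl-CoA reductase (-0.29 ± 0.024), Ech1, a dienoyl-CoA isomerase (-0.19 ± 0.037), and Crot, which exports shortened chains as carnitine esters (-0.16 ± 0.027). Decr2, the dienoyl-CoA reductase, rose. It ran from 54.1 through 64.7 to 91.5 CPM in control mice and from 57.4 through 69.0 to 123 CPM in cKOt mice. At ZT12 control mice held 91.5, 73.2, 62.7, 81.8 and 82.7 CPM and cKOt mice 84.1, 107, 123, 92.4 and 90.7 CPM. The log2 fold change at ZT12 was 0.34, and 0.25 without the cKOt mouse at 123 CPM, left out after the data were seen. The groups overlapped at each time point, and the log2 fold change over the day was 0.12 ± 0.036 (edgeR adjusted p = 0.00438).

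The pair of alpha-oxidation enzymes, which shorten phytanic acid by 1 carbon, moved in opposite directions. Phyh, the hydroxylase of the first step, ran from 695 through 887 to 1135 CPM in control mice and from 519.6 through 618 to 718 CPM in cKOt mice. At ZT16 control mice held 745, 1000.3, 962, 906 and 890.3 CPM and cKOt mice 590.3, 612, 539, 644 and 562 CPM. The genotypes did not overlap at 5 of 6 time points, and the log2 fold change was -0.54 ± 0.029 (edgeR adjusted p = 1.74e-22). Per kilobase of exon Phyh had the highest level of the 45 genes in control mice, 468 CPM per kb, followed by Cat at 438 CPM per kb.

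Hacl1, the lyase that removes the carbon, was measured at a far lower level, 0.489 CPM per kb in control mice and 23 to 117 counts per library. It ran from 1.28 through 2.42 to 3.55 CPM in control mice and from 1.57 through 3.26 to 5.81 CPM in cKOt mice. At ZT12 control mice held 2.79, 1.87, 2.75, 2.99 and 2.42 CPM and cKOt mice 4.26, 4.59, 5.81, 4.42 and 4.82 CPM. The groups were apart at ZT12 and at 1 other time point, and the log2 fold change was 0.49 ± 0.083 (edgeR adjusted p = 1.50e-06). Its exons overlap those of Gm49387 on the same strand, a gene with 0 counts in all 60 libraries, and those of Btd on the other strand. Reads from a shared stretch cannot be assigned to 1 gene, so the level is uncertain.

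All 3 genes of ether lipid synthesis fell by a little. Agps, which forms the ether bond, had a log2 fold change of -0.20 ± 0.041, Gnpat, the acyltransferase before it, one of -0.12 ± 0.016, and Far1, which supplies the fatty alcohol, one of -0.11 ± 0.020. Far1 was not called without the RUVs factors (edgeR adjusted p = 0.0572) or with library batch in their place (0.0598; 1.14e-09 to 0.0598 over the alternatives). Agps differed by -0.015 at ZT0 and by -0.44 at ZT12. Gnpat, whose exons overlap those of Gm16163 (0 to 4 counts per library) on the same strand, did not overlap between genotypes at 3 of 6 time points.

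Of the 7 oxidases and peroxide or redox enzymes, 6 fell and 1 rose, against 23.2% lower and 26.8% higher among all retained genes. Cat, the catalase, ran from 1009 through 1146 to 1294 CPM in control mice and from 699 through 807 to 918 CPM in cKOt mice. At ZT16 control mice held 1164, 1246, 1198, 1221 and 1172 CPM and cKOt mice 767, 762, 726, 838 and 732 CPM. The lowest of the 30 control mice was above the highest of the 30 cKOt mice, and the log2 fold change was -0.51 ± 0.024 (edgeR adjusted p = 1.43e-25).

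Ephx2, soluble epoxide hydrolase, which opens fatty acid epoxides, was the other gene of the 45 with no overlap over 30 and 30 mice, which held for 0.682% of all retained genes. It ran from 561 through 661 to 787 CPM in control mice and from 360.5 through 449 to 533 CPM in cKOt mice. At ZT16 control mice held 661, 721, 738, 776 and 628 CPM and cKOt mice 445, 449, 360.5, 421 and 439 CPM. All cKOt mice were low, and the log2 fold change was -0.58 ± 0.027 (edgeR adjusted p = 5.74e-26). Cat, Ephx2 and Pipox, which oxidizes pipecolic acid and sarcosine, were apart at all 6 time points, against 1.38% of all retained genes apart in 1 direction at all 6.

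Pipox fell by 0.35 ± 0.018 on the log2 scale, Idh1, the NADP-dependent isocitrate dehydrogenase shared with the cytosol, fell by 0.26 ± 0.031, and Prdx5, a peroxiredoxin also found in mitochondria, fell by 0.14 ± 0.034. The pair of D-amino acid oxidases moved apart. Dao, which acts on neutral D-amino acids, had a log2 fold change of 0.098 ± 0.019 (edgeR adjusted p = 2.38e-05), and Ddo, which acts on D-aspartate, one of -0.23 ± 0.025 (edgeR adjusted p = 3.82e-11). Ddo ran from 61.0 through 76.3 to 86.2 CPM in control mice and from 49.0 through 66.7 to 82.1 CPM in cKOt mice. At ZT8 its control mice held 83.1, 73.0, 66.1, 76.5 and 76.2 CPM and its cKOt mice 52.6, 55.8, 54.2, 53.4 and 61.2 CPM, with no overlap. The 3 genes whose windows held an E-box, Dao, Gnpat and Ddo, were thus 1 higher and 2 lower.

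**Figure D2:**
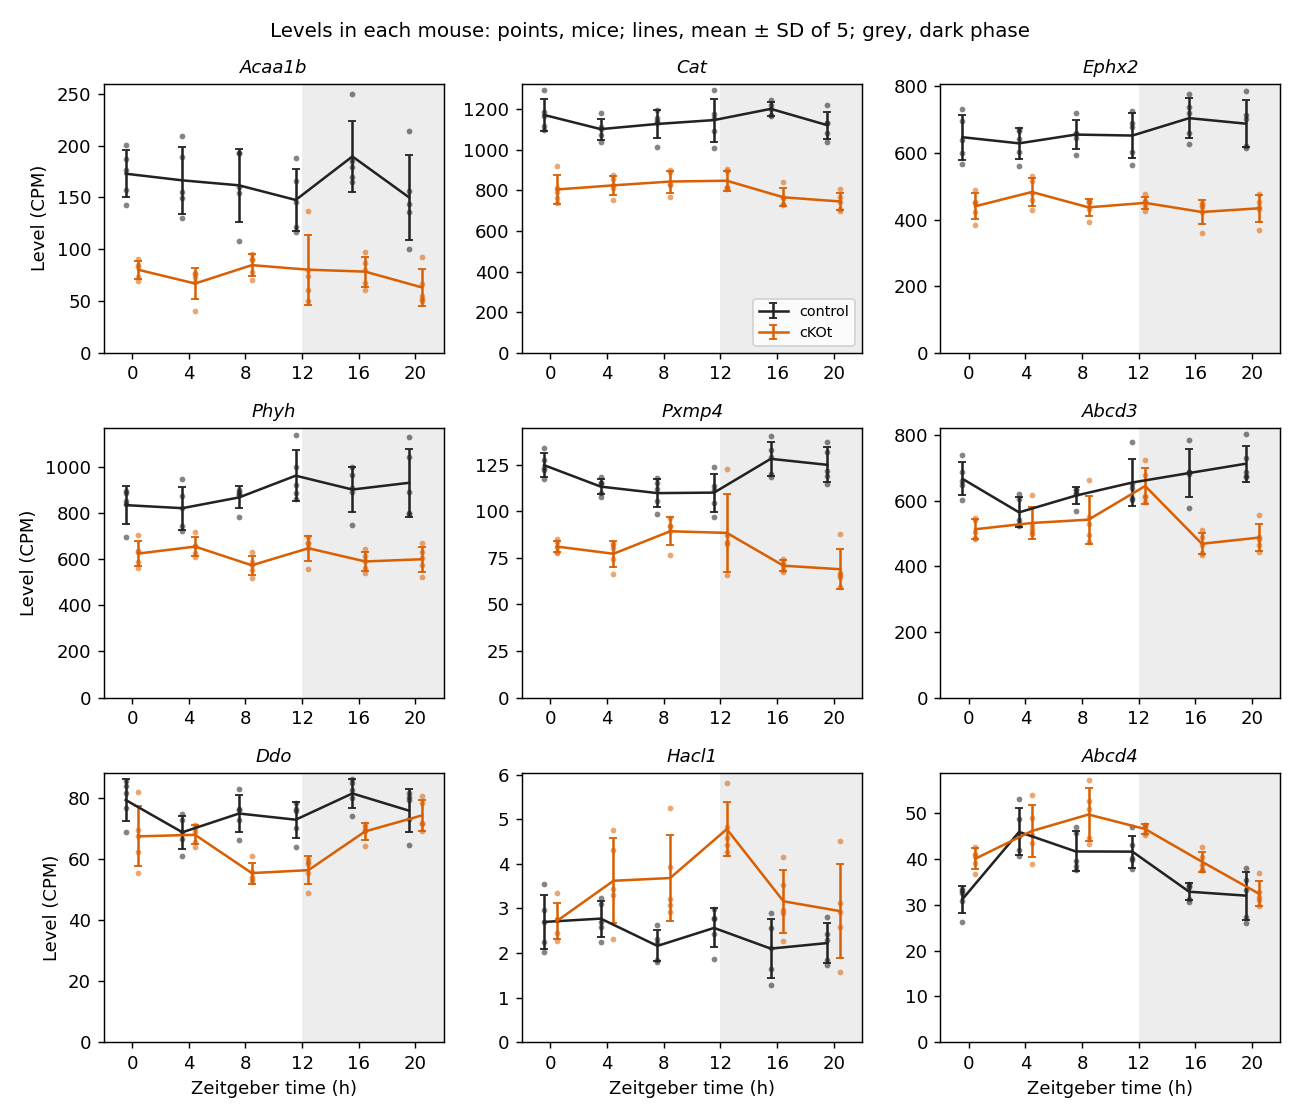
Levels of 9 of the genes in CPM (vertical axes, from 0) at each Zeitgeber time (horizontal axes), with 1 point per mouse, lines through group means and bars for the SD of 5 mice; black, control; orange, cKOt; grey, dark phase. The cKOt line of Cat, Ephx2, Phyh and Acaa1b runs below the control line at all 6 time points, that of Abcd3 meets it at ZT12, and that of Ddo at ZT4 and ZT20.

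The genotype difference varied between time points for 5 of the 45 genes (interaction test in the same edgeR fit, adjusted p below 0.05), against 3.08% of all retained genes. These were Abcd3 (edgeR adjusted p of the interaction = 3.74e-05), Pxmp4 (9.37e-05), Ddo (0.00276), Pex11a (0.00295) and Crot (0.0348). For Abcd3 the log2 fold change was -0.049 at ZT12 and -0.54 at ZT20, for Pxmp4 -0.30 at ZT12 and -0.87 at ZT20, and for Pex11a -0.067 at ZT8 and -0.68 at ZT20. For Crot it was 0.017 at ZT12 and -0.33 at ZT20. The cKOt mouse of ZT12 that was high in Ehhadh was also high in Pxmp4 and the highest in Abcd3. It was high in Pex11a as well, at 97.7 CPM with the next at 72.4 CPM. Without it the ZT12 difference was -0.12 for Abcd3, -0.43 for Pxmp4 and -0.32, in place of -0.14, for Pex11a. All of these interactions were still called (edgeR adjusted p = 5.67e-05, 4.93e-05 and 0.00088).

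These 4 genes had in common that cKOt levels came nearest to control levels at ZT8 or ZT12 and were farthest below at ZT20, with ZT16 close to it in all but Crot. Ddo ran the other way, with differences of -0.43 at ZT8, -0.38 at ZT12 and 0.020 at ZT20. In Abcd3 the control mean rose from 564 ± 45.6 CPM at ZT4 to 712 ± 55.1 CPM at ZT20, whereas the cKOt mean was 644 ± 54.8 CPM at ZT12 and 487 ± 41.8 CPM at ZT20 (SD, n = 5 each). The interaction of Crot was not called without the RUVs factors (edgeR adjusted p = 0.237), with library batch in their place (0.199), without the first, the second, the third or the fourth replicates (0.0946, 0.146, 0.214 and 0.0957) or without the first cKOt mouse of ZT20 (0.0515), the range over all alternatives being 0.00959 to 0.237. Pex11a lost its interaction without the fourth or the fifth replicate of each group (0.0611 and 0.0746, 3.50e-05 to 0.0746 over the alternatives).

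**Figure D3:**
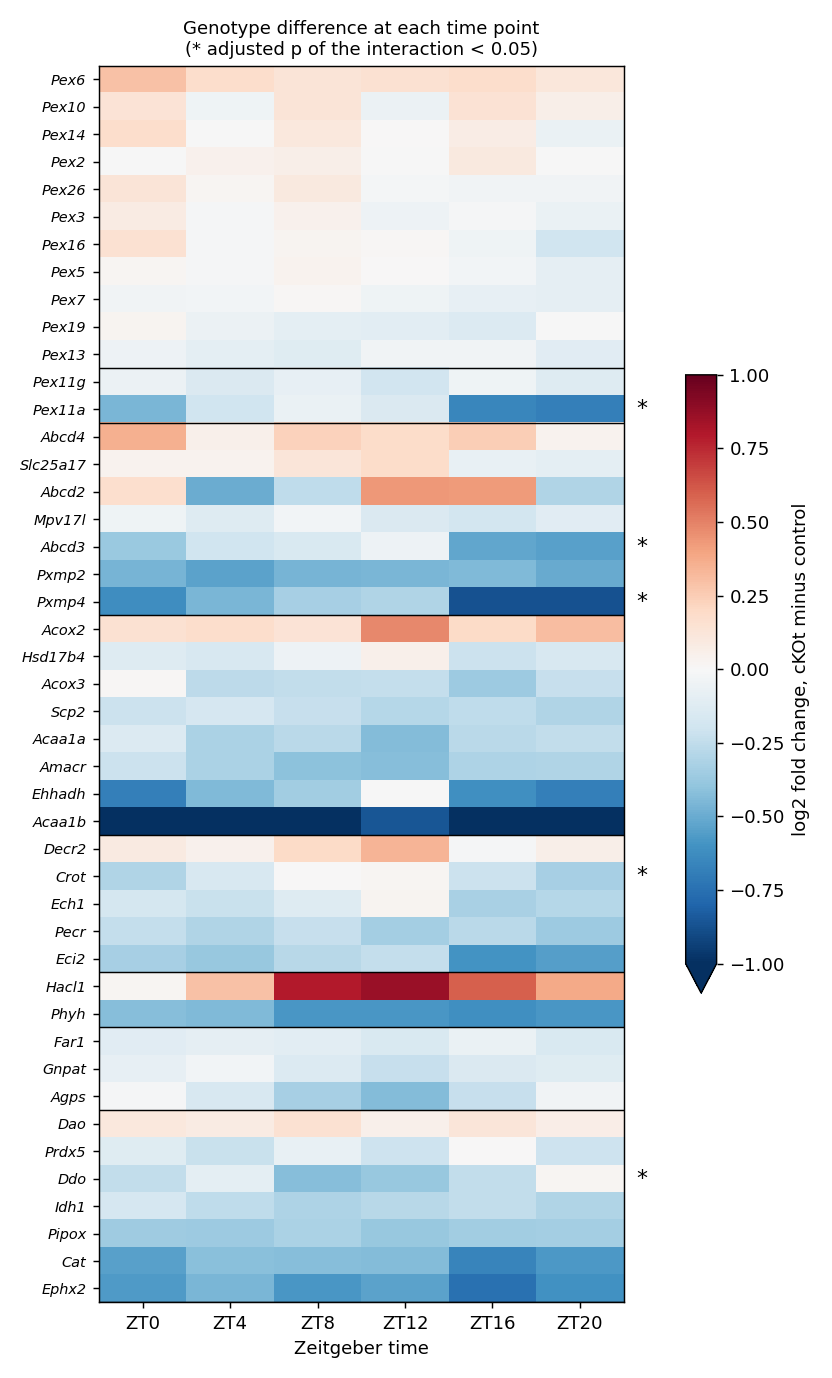
Log2 fold change (color, cKOt minus control; the scale ends at 1 in both directions) of the 45 genes (rows, by role) at each of 6 Zeitgeber times (columns). Asterisks mark the 5 genes with a called interaction. Acaa1b is dark blue throughout, from -0.86 at ZT12 to -1.32 at ZT20, and Hacl1 is darkest red at ZT12 at 0.87. Without the third cKOt mouse of ZT12, left out after the data were seen, Acaa1b was -1.05 at ZT12. Hacl1 was then 0.76 at ZT12 and 0.80 at ZT8.

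Rhythms were described by choosing, for each gene, among 5 models with a 24 h cosine in neither genotype (model 1), in control only (model 2), in cKOt only (model 3), the same in both (model 4) or different in each (model 5), a gene being assigned where the chosen model had a weight of at least 0.65. No p-value comes with this choice. The amplitudes and peaks given below came from a fit with a separate cosine in each genotype, whichever model was chosen. Of the 45 genes, 12 were in model 1 (34% of all retained genes), 0 in model 2 (6.25%), 6 in model 3 (3.42%), 10 in model 4 (25.2%), 4 in model 5 (2.37%) and 13 were unassigned (28.7%). The 0 in model 2 rested on the settings, since 0 to 5 genes were placed there across the alternatives.

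In model 4, Abcd4 had the widest amplitude, 0.56 (log2, peak to trough) in both genotypes, with fitted peaks at 7.85 h in control and 7.94 h in cKOt mice. Also in model 4 were Pex2, Pex3, Pxmp2, Mpv17l, Decr2, Pecr, Far1, Pipox and Idh1. Mpv17l and Pex2 kept this model in 9 and 11 of 15 alternatives, and the other genes of model 4 in 13 to 15. Idh1 had amplitudes of 0.38 and 0.46 with peaks at 23.1 h and 23.2 h, so that a rhythm of the same timing stood in both genotypes at a lower mean level in cKOt mice.

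In model 3, Hacl1 had the widest amplitude, 0.65 in cKOt against 0.32 in control mice, and Ddo followed with 0.41 against 0.12. The other 4 were Crot, Slc25a17, Cat and Hsd17b4, with cKOt amplitudes of 0.15 to 0.27. Hsd17b4 and Slc25a17 kept this model in 8 and 6 of 15 alternatives, against 14 for Cat and Crot and 15 for Ddo. Of these 6 genes, 5 peaked between 7.65 h and 10.5 h in cKOt mice, and Ddo at 21.0 h. The interaction test called Crot and Ddo but not Hacl1, Cat, Hsd17b4 or Slc25a17 (edgeR adjusted p = 0.309, 0.221, 0.183 and 0.331). For the genes not called, model 3 thus rests on the choice of model alone.

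In model 5 were Abcd3, Pxmp4, Eci2 and Gnpat. Eci2 and Gnpat kept this model in 11 and 10 of 15 alternatives, against 15 for Abcd3 and 14 for Pxmp4. Neither Eci2 nor Gnpat had a called interaction (edgeR adjusted p = 0.0624 and 0.242). Abcd3 peaked at 18.3 h in control and at 9.58 h in cKOt mice with like amplitudes, 0.26 in each, and Pxmp4 at 19.7 h and 7.63 h with amplitudes of 0.26 and 0.35. Eci2 peaked at 13.0 h and 9.70 h, with amplitudes of 0.25 and 0.39.

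**Figure D4:**
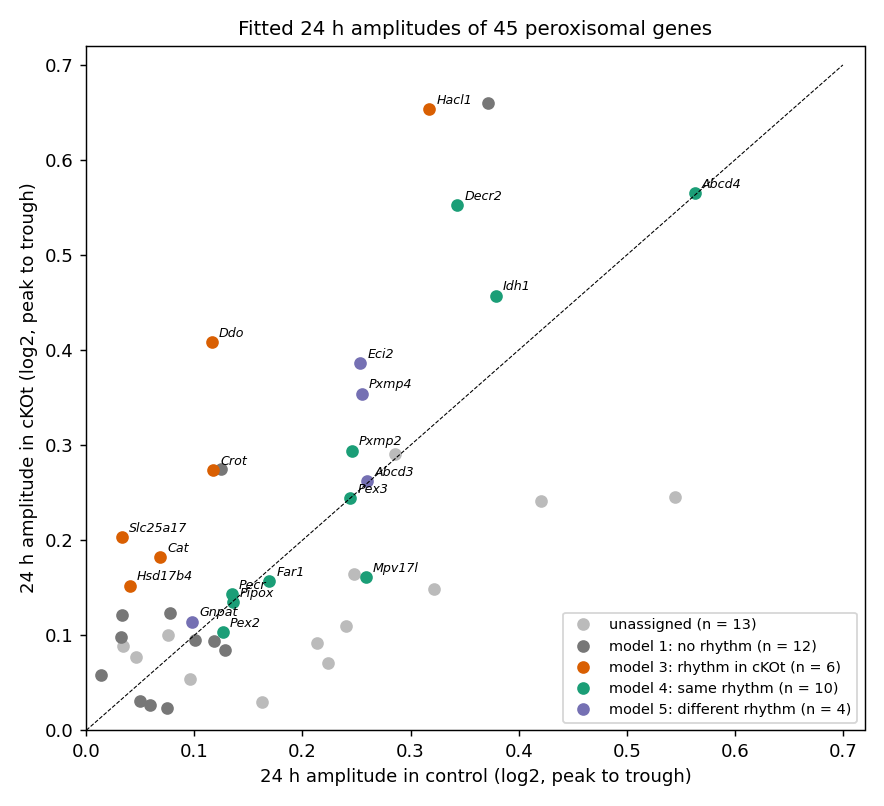
Fitted 24 h amplitude from peak to trough (log2) of each of the 45 genes in control mice (horizontal axis) and cKOt mice (vertical axis), colored by the chosen model, with a dashed line where both are equal. The 6 genes of model 3 lie above the line, with Hacl1 at 0.65 in cKOt, and Abcd4 of model 4 lies on it at 0.56; no gene was placed in model 2.

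A wider list held 53 other genes with products assigned to peroxisomes, of which 48 were retained. Of these 28 were lower, 11 were higher and 9 were not called, with a median log2 fold change of -0.14, and 4 had a called interaction, against 23.2%, 26.8% and 3.08% of all retained genes called lower, higher and for the interaction. The 11 of 48 called higher were thus near the share of all genes. The most negative differences named by the rule were those of Nudt19, a coenzyme A diphosphatase (-0.83 ± 0.055), and Acsl3, an acyl-CoA synthetase (-0.69 ± 0.052). The most positive were those of Hao2, a peroxisomal hydroxy acid oxidase, which ran from 75.7 through 112 to 197 CPM in control and from 674 through 1027 to 1475 CPM in cKOt mice (3.12 ± 0.058), and of the acyl-CoA amino acid N-acyltransferases Acnat1 (0.65 ± 0.068) and Acnat2 (0.65 ± 0.055). The fall of most of the enzymes thus stood beside a rise of Hao2 to a level not met in any control mouse.

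All 6 regulators on the list passed the test, 4 of them lower, against 23.2% lower and 26.8% higher among all retained genes. Ppara, the receptor named above, fell by 0.30 ± 0.039 on the log2 scale, its partner Rxra fell by 0.19 ± 0.020, Pparg fell by 0.32 ± 0.080 and Nr1h4, the bile acid receptor, fell by 0.47 ± 0.066. Ppargc1a, a coactivator of oxidative metabolism, was higher by 0.10 ± 0.029. Ppard, the receptor related to Ppara, ran from 6.81 through 16.1 to 73.4 CPM in control and from 37.9 through 111 to 185 CPM in cKOt mice. Its difference was the widest of the 6, 2.43 ± 0.083 on the log2 scale (edgeR adjusted p = 1.41e-31).

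Markers of the cells that a half-kidney holds moved as follows beside these results, where 23.2% of all retained genes were called lower and 26.8% higher. Of 6 markers of the S1 and S2 segments of the proximal tubule 2 were lower and 3 higher, with sums of 8996 to 12821 CPM in control and 8427 to 13909 CPM in cKOt mice, and of 5 markers of S3 1 was lower and 3 were higher (3550 to 4835 and 3105 to 4619 CPM). Of 4 markers of the thick ascending limb 1 was lower and 3 higher (3125 to 5925 and 3847 to 5125 CPM), of 3 of the distal convoluted tubule 0 were lower and 2 higher (896 to 1299 and 1000.1 to 1400 CPM), of 6 of the collecting duct 1 was lower and 3 higher (224 to 357 and 233 to 341 CPM) and of 4 of podocytes 0 were lower and 1 higher (252 to 369 and 261 to 350.1 CPM).

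Of the markers of non-epithelial cells, all 5 of endothelium (356 to 438 and 310 to 407 CPM), all 5 of fibroblasts and pericytes (58.4 to 213 and 70.2 to 177 CPM), 4 of 5 of macrophages (60.1 to 109 and 67.0 to 108 CPM) and all 3 retained of lymphocytes (1.06 to 3.37 and 0.772 to 1.99 CPM) were lower, with Cd79a and Ms4a1 under the filter, against 23.2% of all retained genes. None of 4 adipocyte markers was called (0.108 to 17.6 and 0 to 19.1 CPM), and of 4 markers of tubular injury 1 was lower and 1 higher (9.21 to 23.1 and 9.50 to 21.2 CPM). Their part in the differences of the peroxisomal genes was not tested.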

How the data were processed

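The authors made RNA-seq libraries (TruSeq Stranded mRNA) from half-kidneys, sequenced them as single reads of 150 cycles and, per the labels, aligned them to GRCm38; the submitters' processing notes name bcl2fastq, cutadapt 1.8, STAR 2.5.3a and HTSeq 0.9.1. The deposited values are raw counts of reads per Ensembl gene, not normalized or pooled. Whether counting used strand is not given in the sources used here. Of all alignments of control libraries 25.7% to 29.4%, and of cKOt libraries 24.3% to 26.9%, were listed as not unique; these and other lines that name no gene were left out.

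Symbols and positions came from GENCODE M21. Genes that reached 1 CPM in any sample were retained, libraries were scaled by TMM (factors 0.908 to 1.07), and edgeR 4.0.16 (R 4.3.3) fitted 12 genotype-by-time groups plus 2 RUVs factors (computed from logCPM with a prior count of 2), with the quasi-likelihood test of the mean difference and of the interaction and Benjamini-Hochberg adjustment over all retained genes. Rhythms were chosen among 5 cosine models (period 24 h) by BIC weight, as dryR does, on RUVs-corrected logCPM; dryR and RUVs were rewritten. The scripts were tested on simulated data. CPM values use TMM-scaled library totals, without RUVs.

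Alternatives used DESeq2 1.42.0, limma 3.58.1, other filters, covariates and thresholds, and fewer mice. Replicates are separate mice. Replicate numbers were not taken as pairs. Residuals of RUVs-corrected values had a mean correlation of 0.0010 over 330 pairs of same-numbered libraries. By these residuals, 13 of 60 mice correlated best with their own number. The RUVs factors can take up deviations that mice share, so these values cannot exclude pairing. The 45 genes and the other lists were chosen with earlier results of these data known. Values by mouse are given for the 5 most negative and 5 most positive called genes, the 3 smallest interaction p-values, the widest amplitude per rhythm model and the pair Acaa1a and Acaa1b; Pex11a, Ehhadh and Pipox were added after their values were seen. Of the other peroxisomal genes the rule names 3 in each direction; some genes that it covers are not reported here.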

Additional observations from a re-analysis of the deposited data

Results flagged for a closer look

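In a group of 5 mice, a highest or lowest mouse was singled out where its gap to the next, divided by the range of the group, was above 0.71, which chance gives in about 1 of 20 groups. Only the 13 genes chosen by the naming rule, Pex11a and Crot were checked, each in both genotypes at the time point of its widest difference. Of these 30 groups, 2 met the rule, both through the same mouse, the first of the cKOt group at ZT20. This mouse held 87.5 CPM of Pxmp4, the next 66.7 CPM (gap over range 0.740), and 68.9 CPM of Pex11a, the next 55.4 CPM (0.773). Without it the ZT20 difference was -0.96 for Pxmp4 and -0.76 for Pex11a. The third cKOt mouse of ZT12, high in Ehhadh, Pxmp4 and Pex11a, was not covered for these genes. Ehhadh was not checked, and Pxmp4 and Pex11a were checked at ZT20.

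The genotype difference varied between time points by the interaction test of edgeR for Abcd3 (adjusted p = 3.74e-05), Pxmp4 (adjusted p = 9.37e-05), Ddo (adjusted p = 0.00276), Pex11a (adjusted p = 0.00295) and Crot (adjusted p = 0.0348). Over 16 alternatives the adjusted p ran from 1.03e-07 to 0.00734 for Abcd3, from 5.55e-07 to 0.00770 for Pxmp4 and from 0.000125 to 0.0485 for Ddo, whereas Pex11a (up to 0.0746) and Crot (up to 0.237) lost the call in some.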

How the results depend on the processing

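Of the 36 called genes, 31 kept their direction and call in all 16 alternatives of the mean test, and 5 (Pex6, Pex7, Pex13, Mpv17l and Far1) lost the call in at least 1; no called gene changed sign, and of the 9 not called, 0 gained a call. Without the RUVs factors, or with library batch (6 batches of 9 to 12 mice, both genotypes in each) in their place, 26 genes were lower and 5 higher, and with the replicate block 30 were lower, 6 higher and 5 had an interaction, so that the block changed no call count of the mean test. With an added fold of 1.2, 14 were lower and 1 higher; the cause is the threshold itself. Leaving out 1 replicate number at a time, or either of 2 single cKOt mice (chosen after seeing the data: the third of ZT12, the first of ZT20), gave 28 to 30 lower, 6 to 6 higher and 3 to 5 interactions, the 3 being without the fourth replicates.

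The number of genes with a rhythm in control mice only (model 2), 0 in the report, was 1 without RUVs factors, 1 with 1 RUVs factor, 2 with library batch, 3 with the replicate block, 2 with DESeq2 size factors, 5 at a BIC weight of 0.5 and 1 to 5 leaving out mice. Model 3 held 3 to 6 genes leaving out mice (3 without the third replicates), and model 5 held 2 at a BIC weight of 0.8 and 2 to 5 leaving out mice (2 without the second replicates). The cause was not tested.

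Genes that changed sign were not called in any setting. Abcd2 was 0.016 with filterByExpr, 0.024 without RUVs factors and -0.31 to 0.14 leaving out mice; Pex3 was 0.013 without RUVs factors, 0.019 with library batch and -0.019 to 0.0067 leaving out mice; Pex16 (-0.030 to 0.012) and Pex2 (-0.0022 to 0.049) changed sign only leaving out mice. Abcd2, at about 0.6 CPM, and Hacl1, at 23 to 117 counts, rest on few reads. For Hacl1, the exons shared with another gene on the same strand also leave the level uncertain, whatever the depth. No alternative moved the median of all genes by more than 0.0105.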
